A study of Mus musculus with 52 samples.

Results

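The cells described here were the viable GFP-negative cells of the anterior pituitary, sorted apart from the endothelial cells (ECs) marked by Tie2-GFP. They were compared between WT mice and mice in which beta-catenin was stabilized in ECs. The libraries were chosen by their labels, as 2 WT and 2 stabilized RNA-seq libraries, and make up 4 of the 24 libraries from sorted cells and 4 of the 52 samples of the series. The question was whether endocrine cells and other non-endothelial cells of the gland differed between the genotypes, given that the altered allele was recombined in the ECs around them.

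All mice were adult males that carried Tie2-GFP, a transgene in which Tie2 regulatory sequences drive GFP in ECs. WT mice carried this transgene alone. Stabilized mice were Tie2-GFP; Pdgfb-CreER; BcatEx3fl, so that an EC-expressed, tamoxifen-dependent Cre recombinase removed exon 3 of Ctnnb1 and with it the residues that mark beta-catenin for degradation. Per the study's methods the stabilized mice received 100 µg of 4-hydroxytamoxifen (4HT) at postnatal day 10, and each pituitary replicate pooled 20 to 30 mice between postnatal days 30 and 90. The study's methods state 4HT for these mice, so that the genotypes also differed in Cre and, as far as stated, in 4HT, which cannot be told apart from the stabilized allele. Lobes were dissociated with papain, and viable cells without GFP were collected by flow sorting. Because a library pools many mice and a group holds 2 libraries, p-values measured the spread between pools.

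The anterior pituitary is built of hormone-secreting cells: somatotrophs make growth hormone, lactotrophs make prolactin, corticotrophs make proopiomelanocortin, and gonadotrophs and thyrotrophs make glycoprotein hormones of a shared alpha subunit and their own beta subunits. Hormones are processed and stored in dense-core granules and released in response to hypothalamic factors that arrive through highly permeable portal capillaries. Stem-like folliculostellate cells, pericytes, fibroblasts, macrophages and blood cells lie between them.

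The 4 libraries held between 25866472 and 37529274 estimated reads. Across genes their log2 CPM correlated at 0.851 between the WT libraries and 0.878 between the stabilized libraries, against 0.839 to 0.844 across genotypes. Genes above 0 numbered 17059 and 17353 in the WT libraries and 20111 and 19674 in the stabilized libraries. Mitochondrial transcripts made up 21.0% and 26.5% of TPM in the WT libraries and 32.1% and 29.3% in the stabilized libraries. These differences ran along with genotype, and their part in the results below was not tested.

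The labelled cell type was borne out by its markers. The 7 hormone subunits summed to 33901 to 60387 TPM (a level corrected for transcript length and library size) in the 4 libraries, against 4067 to 6832 TPM in the GFP-positive cells of the same lobe. The 13 EC markers summed to 33.3 and 38.1 TPM in the WT libraries and 13.3 and 8.98 TPM in the stabilized libraries, against 4304 to 6235 TPM in the GFP-positive cells. Ctnnb1, the targeted gene, was at 158 and 217 TPM in WT and 168 and 170.3 TPM in stabilized GFP-negative cells, with overlapping libraries. A sum over the transcripts of a gene does not show whether exon 3 is present, so this value does not check the allele.

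The GFP-positive libraries of the lobe enter some comparisons below. Stabilized GFP-positive replicate 2 is anterior pituitary by its title and source but posterior pituitary by its tissue label, and it was used as anterior. Its hormone subunits summed to 4067 TPM, against 4391 to 6832 TPM in the other 3 anterior and 346 to 3352 TPM in the posterior GFP-positive libraries. Its 8 somatotroph and lactotroph genes summed to 3467 TPM, against 3719 to 5684 TPM in the other 3 anterior and 3.05 to 18.9 TPM in the posterior GFP-positive libraries. Markers of macrophages also moved with genotype in this fraction, although EC markers dominated it. Their sum was 31.0 and 23.8 TPM in WT and 231 and 327 TPM in stabilized libraries, and 10 of 14 were higher in both stabilized libraries on TPM (23.2% of all genes tested there). C1qa, a complement subunit made by macrophages, was among them at 0.263 and 0.0245 TPM in WT and 58.2 and 97.8 TPM in stabilized libraries, and Cd163 was at 0 in all 4. The part of macrophages in the GFP-positive values below was not tested.

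The number of genes called different between the genotypes was small in the main test and depended on the method. Of 19612 genes tested with edgeR's quasi-likelihood test, in a fit that shared the spread of all 12 GFP-negative libraries of the series, with calls made where the adjusted p was below 0.05 and the change 2-fold or more, 7 (0.0357%) were higher and 1 (0.0051%) was lower in stabilized mice. DESeq2 called 225 higher and 62 lower, edgeR without its filter on low counts 176 and 75, and edgeR with 1 of the 4 libraries left out 27 to 51 and 7 to 12. At an unadjusted p under 0.05 there were 712 higher and 369 lower genes, or 5.51% of all tested. In 23.6% of the genes both stabilized libraries lay above both WT libraries, and in 16.4% both lay below, counted on CPM (read counts scaled by library size with TMM normalization). Among the 5330 genes that reached 10 TPM in both libraries of a genotype, these shares were 22.1% and 25.2%. On TPM 9.59% of these genes lay higher and 46.2% lower in both stabilized libraries, and of all genes tested 15% and 26.9%, so that levels leaned lower on that scale. Below, members of a list are counted as higher or lower in both stabilized libraries on CPM, to be read against 23.6% and 16.4% (22.1% and 25.2% for genes that reached 10 TPM), and then on TPM. Counts on TPM are to be read against 15% and 26.9% (9.59% and 46.2% for genes that reached 10 TPM). Counts of calls in a list are to be read against 8 of 19612 genes called by edgeR and 287 by DESeq2. Few or no calls in a short list are near these shares and do not set the list apart. The median log2 fold change was 0.07 over all genes and -0.0066 over those that reached 10 TPM. As log2 ratios of TPM these medians were -0.18 and -0.44.

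**Figure D1:**
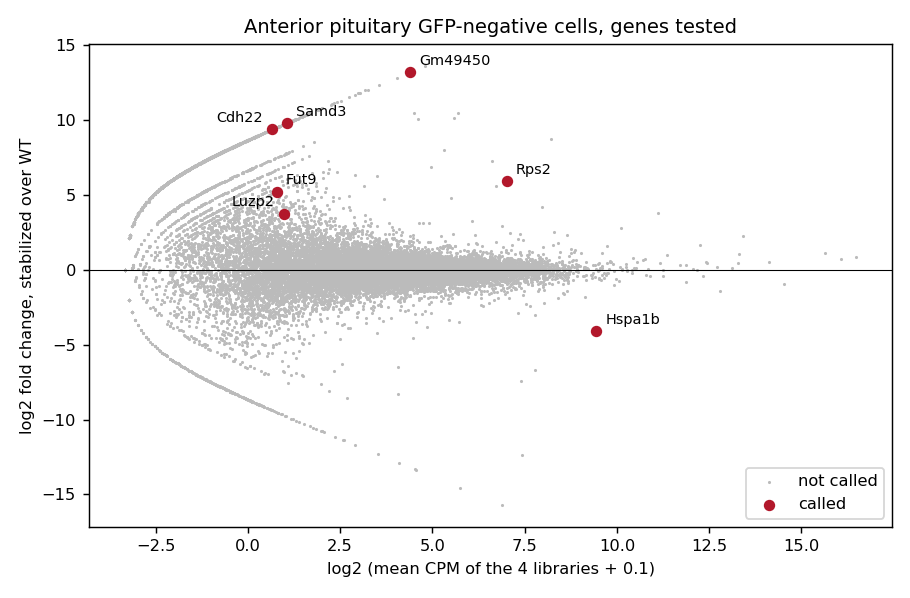
Log2 fold change of stabilized over WT against the log2 mean CPM of the 4 libraries, with 1 point per gene and 7 of the 8 called genes in red. The curved outer bands are genes whose reads were absent or nearly so in one genotype. Rps2 and Hspa1b are the called genes with the highest counts.

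The gene called lower was Hspa1b, which encodes an inducible Hsp70 chaperone made under proteotoxic stress (chromosome 17, 34956436 to 34959238, GRCm38). It was at 1175 and 1449 CPM in the WT libraries and 79.8 and 74.3 CPM in the stabilized libraries, so the groups were far apart. It fell 17.0-fold (log2 fold change -4.09, SE 0.525, adjusted p = 0.0129, edgeR), or by a log2 fold change of -3.40 with an offset for effective transcript length (adjusted p = 0.0464). The same gene was also called lower in the GFP-positive cells of the lobe (adjusted p = 0.0418, and 0.101 by edgeR without stabilized GFP-positive replicate 2), where TPM went from 1268 and 1502 in WT to 86.3 and 40.2 in stabilized mice, and in the GFP-negative cells of the posterior pituitary, where it went from 77.7 and 173 to 8.75 and 4.61. Its near-identical neighbour Hspa1a was at 322 and 459 CPM in WT and 39.0 and 57.5 CPM in stabilized libraries, again without overlap (log2 fold change -3.02, SE 0.563, adjusted p = 0.149, edgeR). It was not called by edgeR but was called lower by DESeq2. Reads shared by the pair cannot be assigned to one copy with certainty.

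The proximal promoters of the pair are shown because this difference involves both copies. They are the 250 bases upstream of the annotated start, from RefSeq on GRCm38.p6, minus strand, 5′ to 3′. Capitals mark a heat-shock element searched as GAANNTTC, a motif added after the values had been seen.
Hspa1b (chr17:34959239-34959488): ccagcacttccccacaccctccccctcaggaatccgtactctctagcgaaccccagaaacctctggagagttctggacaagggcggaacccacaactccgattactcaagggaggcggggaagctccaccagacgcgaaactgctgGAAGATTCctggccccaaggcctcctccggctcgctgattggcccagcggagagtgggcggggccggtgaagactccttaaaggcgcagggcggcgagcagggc
Hspa1a (chr17:34972157-34972406): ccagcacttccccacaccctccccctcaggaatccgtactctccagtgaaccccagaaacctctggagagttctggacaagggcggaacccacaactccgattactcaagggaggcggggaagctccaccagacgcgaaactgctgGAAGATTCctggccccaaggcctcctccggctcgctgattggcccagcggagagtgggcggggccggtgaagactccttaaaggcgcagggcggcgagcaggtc
The 2 windows were 98.8% identical without gaps. Each held 1 such element, which is its own reverse complement, as are the CRE and AP-1 letters below, and TCF/LEF letters were searched on both strands. The element was present in 6.78% of 27025 promoters of the same length, taking 1 per gene symbol, and in 4 of the 8 heat-shock genes with an entry (Hspa1a, Hspa1b, Hspb1 and Hspe1). Neither window held CRE (TGACGTCA, in 1.62% of promoters), AP-1 (TGANTCA, 6.87%) or TCF/LEF letters (CTTTGAA, 4.64%, or CTTTGAT, 3.23%). These matches are descriptions of letters and say nothing of binding.

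Of the 7 genes called higher, Rps2 and Gm49450 reached 10 TPM. Rps2, a protein of the small ribosomal subunit with many processed copies in the genome (chromosome 17, 24718116 to 24721929), was at 4.61 and 3.80 CPM in WT and 186 and 321 CPM in stabilized libraries (log2 fold change 5.91, SE 0.800, adjusted p = 0.019, edgeR). Gm49450, a predicted protein-coding gene (chromosome 15, 98932137 to 98953551), had no reads in the WT libraries and lay at 42.0 and 41.7 CPM in the stabilized libraries, at least 523-fold higher against a floor of 3 counts per library (adjusted p = 0.0129). Both also separated the genotypes in the GFP-positive cells of the lobe, with Rps2 at 14.0 and 15 TPM in WT and 191 and 213 TPM in stabilized libraries, and Gm49450 at 0 in both WT and at 54.1 and 45.8 TPM in the stabilized libraries. Neither was called in those cells (adjusted p = 0.0768 for Rps2 and 0.236 for Gm49450, edgeR). In the posterior pituitary GFP-negative cells Gm49450 was called higher (adjusted p = 0.0126, edgeR), from 0 in both WT to 15.3 and 21.4 TPM in stabilized libraries. Rps2 went there from 3.63 and 18.6 to 110 and 94.8 TPM without a call (adjusted p = 0.0528, edgeR). In cerebellum GFP-negative cells Rps2 was higher in both stabilized libraries, and Gm49450 overlapped. Other genes that may share reads with near-identical copies also separated the genotypes. Rpl17-ps10, a processed pseudogene, was at 630.2 and 707 TPM in WT and 0 and 0.155 TPM in stabilized libraries, and the mitochondrial gene mt-Nd3 at 0.571 and 0 TPM in WT and 436 and 339.8 TPM in stabilized libraries. Both were chosen after their values were seen, and neither was called by edgeR. All libraries listed the same transcripts with the same lengths. Whether reads were assigned alike, or libraries made alike, in both genotypes was not tested. All calls of this kind remain uncertain for that reason.

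Another 4 genes called higher were low in every anterior pituitary library, and they are given here because they were called. Cdh22, a cadherin of brain, had no reads in WT and 2.63 and 3.30 CPM in stabilized libraries, at least 37.1-fold higher, and Samd3 went from no reads to 3.22 and 4.69 CPM, at least 49.4-fold higher (adjusted p = 0.00758 and 0.0272, edgeR). Luzp2, a leucine zipper protein, went from 0.266 and 0.241 to 2.08 and 4.83 CPM (adjusted p = 0.0335), and Fut9, a fucosyltransferase that makes the Lewis x epitope, from 0.133 and 0.0267 to 4.13 and 2.22 CPM (adjusted p = 0.00758). The WT libraries held 5.00 and 1 reads of Fut9, so its fitted log2 fold change of 5.23 depends on the prior count. None of these 4 genes exceeded 2 TPM in an anterior pituitary library.

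All 4 were higher elsewhere. Luzp2 lay at 293 and 95.2 TPM in the WT and 129 and 45.8 TPM in the stabilized GFP-negative cells of cerebellum. Fut9 was at 22.8 and 11.1 TPM in WT cerebellum, and Cdh22 at 17.1 and 5.93 TPM. Samd3 instead was highest in the posterior pituitary, at 18.6 and 62.1 TPM in WT and 7.15 and 15.7 TPM in stabilized libraries. In the anterior pituitary the 9 neuron markers summed to 11.3 and 17.5 TPM in WT and 10.1 and 8.92 TPM in stabilized libraries, and their part in these low values was not tested.

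**Figure D2:**
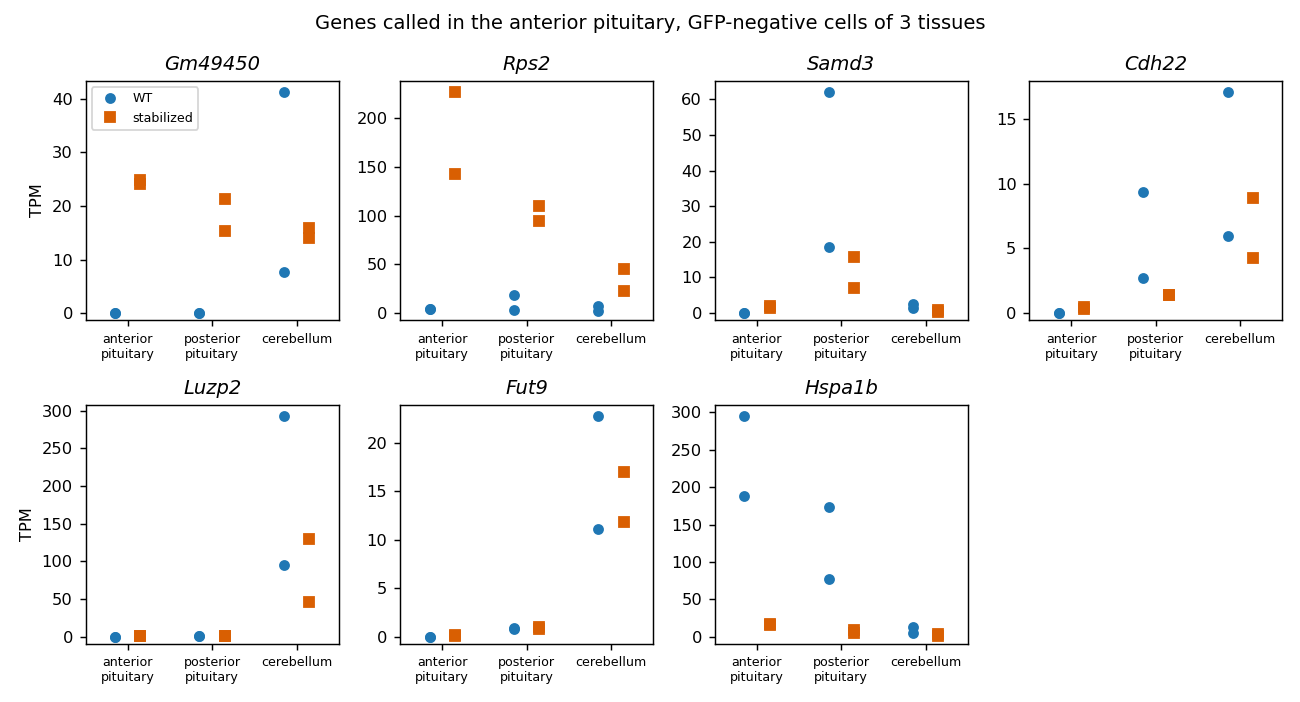
TPM of 7 of the 8 called genes in the GFP-negative libraries of anterior pituitary, posterior pituitary and cerebellum, with 1 circle for each WT and 1 square for each stabilized library, on a linear scale of its own for each gene. In the anterior pituitary Samd3, Cdh22, Luzp2 and Fut9 lie close to 0 in all 4 libraries, whereas Hspa1b is between 189 and 295 TPM in WT and between 15.9 and 17.4 TPM in stabilized libraries.

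The calls depended on the libraries and the scaling used in the fit, and the cause was not tested. All 8 genes remained called with DESeq2, without the filter and with each of the 4 libraries left out. With the 4 libraries fitted alone, Gm49450, Rps2 and Hspa1b remained called. With an offset for effective transcript length, Fut9, Luzp2 and Samd3 were lost, with log2 fold changes of 4.37, 2.97 and 9.75 (adjusted p = 0.0733, 0.336 and 0.0733, edgeR). In a fit of all 24 sorted libraries Rps2 alone of the 8 remained, and Hspa1b had an adjusted p of 0.264 by edgeR.

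No hormone gene was called. Of the 7 subunits, edgeR called 0, with 1 at an unadjusted p under 0.05, and DESeq2 called 0. Of all 19612 genes tested edgeR called 8 and DESeq2 287, so that 0 of 7 does not set the hormone genes apart. On CPM 4 subunits (57.1%) were higher and 1 (14.3%) was lower in both stabilized libraries, against 22.1% and 25.2% of the genes that reached 10 TPM, as all 7 did, with a median log2 fold change of 0.92. On TPM there were 2 higher and 1 lower, with a median log2 ratio of 0.23.

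Prl, prolactin, was the most abundant hormone transcript in all 4 libraries, at 31239 and 45324 TPM in WT and 16781 and 24446 TPM in stabilized libraries. On counts it lay at 27346 and 34335 CPM in WT and 13144 and 19604 CPM in stabilized libraries, lower in both (log2 fold change -0.91, SE 0.738, adjusted p = 0.896, edgeR). Gh, growth hormone, went the other way. It was at 3465 and 3882 CPM in WT and 11199 and 24824 CPM in stabilized libraries (log2 fold change 2.29, SE 0.975, adjusted p = 0.771, edgeR). The stabilized libraries thus lay above both WT libraries, yet apart from each other. On TPM the genotypes were closer, at 3600.2 and 4639.8 TPM in WT and 7456 and 14329 TPM in stabilized libraries. Pomc, the precursor of ACTH and of melanocyte-stimulating hormone, was at 7104 and 6241 CPM in WT and 8228 and 19109 CPM in stabilized libraries (log2 fold change 1.03, SE 1.17, adjusted p = 1).

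Among the glycoprotein hormones, Fshb, the beta subunit of follicle-stimulating hormone, was at 253 and 309 CPM in WT and 429 and 838 CPM in stabilized libraries (log2 fold change 1.17, SE 0.765). Lhb, its luteinizing hormone counterpart, was at 52.3 and 89.9 CPM in WT and 96.6 and 173 CPM in stabilized libraries (log2 fold change 0.92, SE 1.62). Both were higher in both stabilized libraries on CPM and overlapped on TPM. Cga, the shared alpha subunit, was at 1159 and 1446 CPM in WT and 1219.9 and 2827 CPM in stabilized libraries, and Tshb, the beta subunit of thyrotropin, at 134 and 149.5 CPM in WT and 56.6 and 187 CPM in stabilized libraries. For these 2 subunits the genotypes overlapped. The median log2 ratio of TPM over all genes tested was -0.18.

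**Figure D3:**
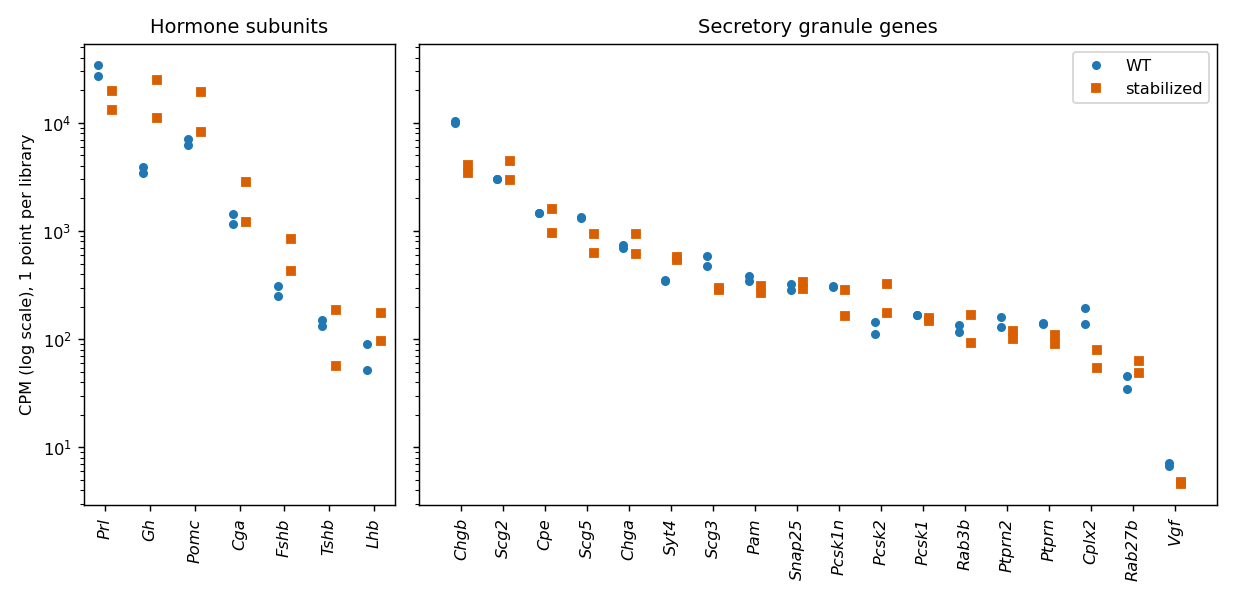
CPM of the 7 hormone subunits and of the 18 secretory granule genes on a log scale, with 1 circle for each WT and 1 square for each stabilized library. Gh lies higher and Prl lower in both stabilized libraries, and Chgb, Scg5, Scg3 and Cplx2 lie lower.

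Of the receptors for hypothalamic and peripheral signals, edgeR called 0 of 16, with 2 at an unadjusted p under 0.05, and DESeq2 called 1 (Sstr1, higher). On CPM 7 (43.8%) lay higher and 3 (18.8%) lower in both stabilized libraries, against 23.6% and 16.4% of all genes, with a median log2 fold change of 0.23. On TPM 4 (25%) were higher and 6 (37.5%) lower, against 15% and 26.9% of all genes. The median log2 ratio was -0.32, against -0.18 over all genes. The list summed to 161 and 193 TPM in WT and 107 and 113 TPM in stabilized libraries. Of the 6 receptors that reached 10 TPM, Nr3c1, the glucocorticoid receptor, was at 39.2 and 51.9 CPM in WT and 97.7 and 125 CPM in stabilized libraries (log2 fold change 1.29, SE 0.389, adjusted p = 0.583, edgeR). Gnrhr, through which gonadotropin-releasing hormone acts on gonadotrophs, was at 30.7 and 51.8 CPM in WT and 57.9 and 90.4 CPM in stabilized libraries. Both receptors were higher in both stabilized libraries, but their TPM overlapped between the genotypes.

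Drd2, the dopamine receptor that restrains prolactin release, was at 61.6 and 75.8 CPM in WT and 58.1 and 57.3 CPM in stabilized libraries. Esr1, the estrogen receptor, was at 300.4 and 302 CPM in WT and 192 and 222 CPM in stabilized libraries. Both were lower in both stabilized libraries, by a log2 fold change of -0.25 and -0.54. On TPM they lay further apart, with Drd2 at 20.7 and 29.8 TPM in WT and 9.39 and 9.03 TPM in stabilized libraries and Esr1 at 44.2 and 42.1 TPM in WT and 18.2 and 18.3 TPM in stabilized libraries. Thrb, a thyroid hormone receptor, overlapped at 146 and 109 CPM in WT and 129 and 89.8 CPM in stabilized libraries, and was lower in both on TPM. Under 10 TPM in at least 1 library of each genotype were 10 receptors. Among them Ghrhr, which receives growth hormone-releasing hormone on somatotrophs, was at 3.25 and 0.936 CPM in WT and 9.47 and 14.4 CPM in stabilized libraries, with an SE of 2.40 on a log2 fold change of 2.51. Sstr1, a somatostatin receptor, was at 0 and 0.374 CPM in WT and 3.51 and 13.1 CPM in stabilized libraries (adjusted p = 0.375).

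Transcription factors of the pituitary lineages were also not called by edgeR. Of 20 factors 18 could be tested, and edgeR called 0, with 2 at an unadjusted p under 0.05, while DESeq2 called 1 (Pax7, higher). On CPM 3 were higher and 5 lower in both stabilized libraries, with a median log2 fold change of -0.06, or -0.12 with genes absent from a genotype left at their bound. Pou1f1, which drives the somatotroph, lactotroph and thyrotroph lineages, was at 130.4 and 185 CPM in WT and 159 and 131 CPM in stabilized libraries. Tbx19, the corticotroph and melanotroph factor, was at 38.0 and 50.5 CPM in WT and 47.0 and 76.3 CPM in stabilized libraries. On CPM the genotypes overlapped for both genes. On TPM Pou1f1 was lower in both stabilized libraries, at 123 and 192 TPM in WT and 73.6 and 76.3 TPM in stabilized libraries, and Tbx19 overlapped. The list summed to 763 and 919 TPM in WT and 357 and 353 TPM in stabilized libraries, with 8 of the 18 lower and 1 higher in both on TPM and a median log2 ratio of -0.46. The share of 44.4% that was lower on that scale compares with 26.9% of all genes tested and 46.2% of those that reached 10 TPM, as 10 of the factors did.

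The LIM and paired-type homeobox factors of the early gland included Lhx3 at 40.8 and 32.3 CPM in WT and 29.4 and 14.1 CPM in stabilized libraries, and Pitx1 at 55.3 and 43.9 CPM in WT and 24.1 and 37.8 CPM in stabilized libraries. Both were lower in both stabilized libraries, and on TPM by more for Pitx1, at 20.2 and 17.7 TPM in WT and 6.36 and 7.60 TPM in stabilized libraries. The related Six6 was lower in both, at 167 and 109 CPM in WT and 102 and 98.1 CPM in stabilized libraries, and Six3 overlapped at 80.3 and 118 CPM in WT and 76.3 and 90.3 CPM in stabilized libraries but was lower in both on TPM. Eya1, a partner of Six3 and Six6, was higher in both, at 44.6 and 44.9 CPM in WT and 87.1 and 98.4 CPM in stabilized libraries (log2 fold change 1.05, SE 0.425, adjusted p = 0.771), but overlapped on TPM. Sox2, the factor of pituitary stem cells, overlapped at 43.1 and 22.9 CPM in WT and 35.1 and 24.6 CPM in stabilized libraries. Nr4a1, a stimulus-induced factor of corticotrophs, was lower in both, at 497 and 502 CPM in WT and 194 and 420.2 CPM in stabilized libraries, and by more on TPM, at 387 and 428 TPM in WT and 111 and 90.3 TPM in stabilized libraries.

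The genes that make and fill secretory granules lay lower more often than higher. Of 18 tested, 10 (55.6%) were lower and 3 (16.7%) higher in both stabilized libraries on CPM, against 25.2% and 22.1% of the genes that reached 10 TPM, as 17 of the 18 did. The median log2 fold change was -0.27. edgeR called 0 of the 18, with 2 at an unadjusted p under 0.05, and DESeq2 called 1 (Chgb, lower). Chgb, chromogranin B, a core protein of dense-core granules, was at 10069.9 and 10489 CPM in WT and 3467 and 4119 CPM in stabilized libraries (log2 fold change -1.44, SE 0.383, adjusted p = 0.447, edgeR). Cplx2, a complexin that clamps vesicle fusion, was at 195 and 139 CPM in WT and 79.4 and 53.6 CPM in stabilized libraries (log2 fold change -1.33, SE 0.381, adjusted p = 0.529). Both pairs of libraries were well separated.

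Scg5, the chaperone of prohormone convertase PC2, was at 1338 and 1327 CPM in WT and 631 and 945 CPM in stabilized libraries, and the granin Scg3 at 587 and 474 CPM in WT and 295 and 284 CPM in stabilized libraries. Higher in both on CPM, with overlap on TPM, were 2 other members. Pcsk2, PC2 itself, was at 145 and 110.5 CPM in WT and 176 and 324 CPM in stabilized libraries, and Syt4, a synaptotagmin, at 349 and 345 CPM in WT and 541 and 569 CPM in stabilized libraries. Scg2, Cpe and Chga overlapped on CPM and were lower in both stabilized libraries on TPM. The list summed to 9113 and 10636 TPM in WT and 3882 and 5345 TPM in stabilized libraries, and 15 of the 18 (83.3%) were lower in both on that scale, against 46.2% of the genes that reached 10 TPM. In the posterior pituitary GFP-negative cells it summed to 5139 and 5938 TPM in WT and 2598 and 2396 TPM in stabilized libraries.

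Immediate early genes, which cells switch on within minutes of a stimulus and without new protein synthesis, were lower in most cases. Of 24 tested, 18 (75.0%) were lower and 2 (Egr2 and Myc) higher in both stabilized libraries on CPM, against 25.2% and 22.1% of the genes that reached 10 TPM, as 20 of the 24 did, and the median log2 fold change was -0.73. No member was called by edgeR, 4 were lower at an unadjusted p under 0.05, and DESeq2 called 1 (Klf2, lower). Fos was at 1105 and 1507 CPM in WT and 798 and 485 CPM in stabilized libraries, and Jun, its partner in AP-1, at 571 and 598 CPM in WT and 234 and 211 CPM in stabilized libraries (log2 fold change -1.39, SE 0.453, adjusted p = 0.675, edgeR). Zfp36, which destabilizes cytokine mRNAs, was at 577 and 557 CPM in WT and 226 and 148 CPM in stabilized libraries, and Klf2, a Krüppel-like factor, at 28.1 and 31.5 CPM in WT and 5.15 and 4.16 CPM in stabilized libraries. Jund was also lower on counts, at 129 and 103 CPM in WT and 50.3 and 38.2 CPM in stabilized libraries, but higher in both on TPM, and Egr2 was higher on CPM and lower on TPM. Fos and Zfp36 lay further apart on TPM, with Fos at 767 and 964 TPM in WT and 358 and 193 TPM in stabilized libraries and Zfp36 at 177 and 199 TPM in WT and 39.8 and 26.9 TPM in stabilized libraries.

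Arc, an activity-induced gene outside the list that was chosen after its values were seen, was at 283 and 327 CPM in WT and 64.5 and 62.8 CPM in stabilized libraries (log2 fold change -2.26, SE 0.424, adjusted p = 0.149, edgeR), and further apart on TPM, at 49.3 and 73.1 TPM in WT and 8.34 and 8.63 TPM in stabilized libraries. The summed level of the list was 2841 and 3806 TPM in WT and 1342 and 1142 TPM in stabilized libraries. On TPM 20 of the 24 (83.3%) were lower in both stabilized libraries, against 46.2% of the genes that reached 10 TPM. The list also summed lower in both stabilized libraries of other sorted fractions, with 3714 and 5055 TPM in WT and 1461 and 1096 TPM in stabilized GFP-positive cells of the lobe, and 4219 and 5133 TPM in WT and 1627 and 1027 TPM in stabilized GFP-negative cells of the posterior lobe. The second of the stabilized GFP-positive values is that of the library whose labels disagree on the lobe, and the other lay below both WT values as well. By the study's methods both lobes, and cells with and without GFP, were taken from the pooled mice. These fractions can therefore share mice and a preparation, and were not independent in that case. Genotype and the preparation of the cells cannot be told apart in this design.

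Among the promoters of 20 immediate early genes with an entry, 2 (Btg2 and Dusp1) held the full CRE TGACGTCA, the site of cAMP-responsive CREB factors, against 1.62% of all promoters. No member held the AP-1 or TCF/LEF letters. Dusp1, a phosphatase of MAP kinases that was at 149 and 169 CPM in WT and 93.2 and 65.4 CPM in stabilized libraries, is shown with its CRE in capitals, from RefSeq on GRCm38.p6, minus strand, 5′ to 3′.
Dusp1 (chr17:26508473-26508722): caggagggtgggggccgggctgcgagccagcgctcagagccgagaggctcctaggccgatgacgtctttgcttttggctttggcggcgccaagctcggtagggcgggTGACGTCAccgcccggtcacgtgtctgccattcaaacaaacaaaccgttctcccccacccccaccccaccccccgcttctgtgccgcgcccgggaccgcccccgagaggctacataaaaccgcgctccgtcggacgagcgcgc
The letters are a description of the window and no evidence of its use.

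Of the 10 heat-shock genes, which all reached 10 TPM, 6 were lower and 1 higher in both stabilized libraries on CPM, against 25.2% and 22.1% of the genes at that level, with a median log2 fold change of -0.34. On TPM there were 1 higher and 7 lower, with a median log2 ratio of -1.11. The summed level of the list overlapped, at 2957 and 4027 TPM in WT and 2678 and 3467 TPM in stabilized libraries. Hspa1b was the 1 member called by edgeR, and DESeq2 called 2 (Hspa1a and Hspa1b, lower). Dnajb1, the Hsp40 partner of Hsp70, was at 403 and 455 CPM in WT and 75.7 and 105 CPM in stabilized libraries (log2 fold change -2.25, SE 0.698, adjusted p = 0.612, edgeR), and the small chaperone Hspb1 at 49.7 and 88.7 CPM in WT and 22.6 and 23.2 CPM in stabilized libraries. The constitutive Hspa8 overlapped at 911 and 1121 CPM in WT and 984 and 1284 CPM in stabilized libraries, and Hsp90aa1 was the member that was higher in both, at 609 and 633 CPM in WT and 794 and 906 CPM in stabilized libraries. Genes of the unfolded protein response of the endoplasmic reticulum were evenly split on CPM, with 4 of 15 (26.7%) higher and 4 lower in both. Their median log2 fold change was 0.0042. On TPM 2 (13.3%) were higher and 5 (33.3%) lower, with a median log2 ratio of -0.33. Of the genes that reached 10 TPM, as 13 of the 15 did, 9.59% were higher and 46.2% lower on that scale.

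**Figure D4:**
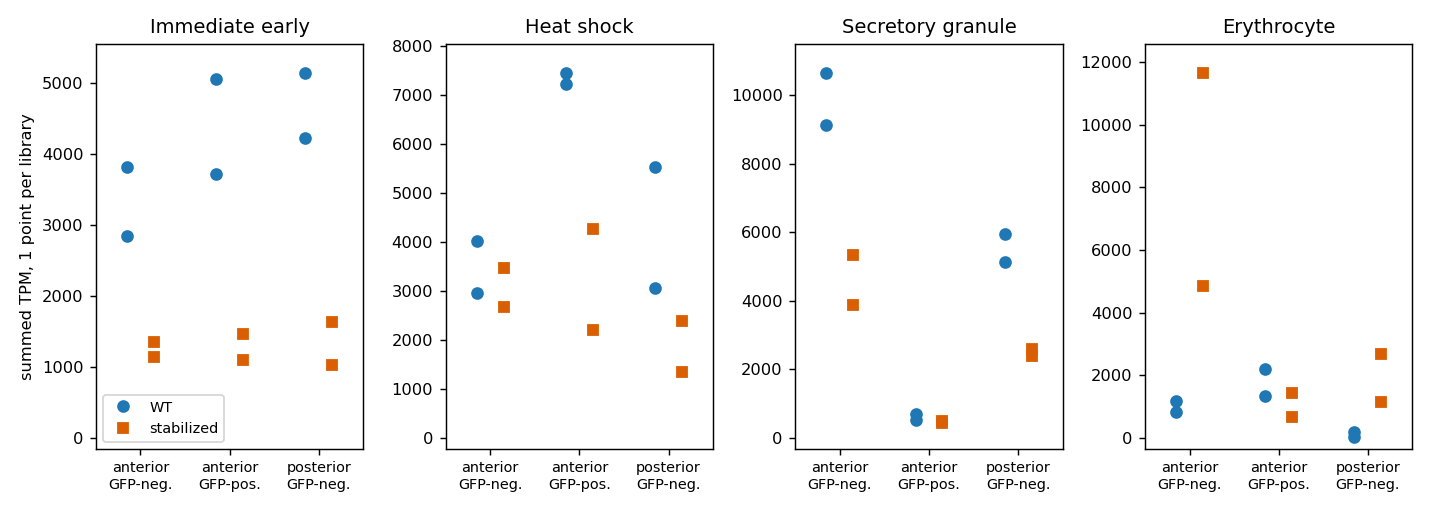
Summed TPM of the immediate early, heat-shock, secretory granule and erythrocyte lists on linear axes, with 1 circle for each WT and 1 square for each stabilized library, in the GFP-negative and GFP-positive cells of the anterior pituitary and the GFP-negative cells of the posterior pituitary. The immediate early sums lie between 2841 and 5133 TPM in the WT libraries and between 1027 and 1627 TPM in the stabilized libraries of all 3 fractions.

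Among cell types other than endocrine cells that the GFP-negative gate can hold, markers of mural cells, fibroblasts and blood cells were more often higher than lower. For the mural list, which marks pericytes and smooth muscle, 9 of 10 genes were higher in both stabilized libraries on CPM, against 23.6% of all genes, with a median log2 fold change of 1.80. On TPM there were 6 higher and 1 lower, with a median log2 ratio of 0.45, and a sum of 23.9 and 22.1 TPM in WT and 95.1 and 57.4 TPM in stabilized libraries. Rgs5, a pericyte regulator of G protein signaling, was at 89.9 and 50.6 CPM in WT and 311 and 251 CPM in stabilized libraries (4.00-fold, SE 0.472 on the log2 scale, adjusted p = 0.328, edgeR). Among 10 fibroblast markers 6 were higher and 2 lower in both on CPM, and on TPM 4 higher and 2 lower, with a median log2 ratio of 0.37. edgeR called 0 of the mural and 0 of the fibroblast genes, with 2 of each at an unadjusted p under 0.05, and DESeq2 called 2 (Acta2 and Rgs5, higher) of the former and 1 (Dcn, higher) of the latter. Dcn, the matrix proteoglycan decorin, was at 157 and 145 CPM in WT and 469 and 464 CPM in stabilized libraries (log2 fold change 1.63, SE 0.420, adjusted p = 0.418), or 138 and 173 TPM in WT and 235 and 207 TPM in stabilized libraries, whereas Col1a2, a chain of type I collagen, was lower in both, at 172 and 164 CPM in WT and 116 and 67.2 CPM in stabilized libraries.

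Markers of erythrocytes and of leukocytes other than macrophages were higher in most cases. The 7 erythrocyte genes summed to 814 and 1169 TPM in WT and 11647 and 4839.6 TPM in stabilized libraries, and 5 of the 6 that could be tested were higher in both on CPM, against 23.6% of all genes, with a median log2 fold change of 3.03. On TPM there were 4 higher and 0 lower, with a median log2 ratio of 2.28. Hbb-bs, a beta globin, was at 195 and 404 CPM in WT and 5683 and 2617 CPM in stabilized libraries (adjusted p = 0.771, edgeR). Leukocyte markers other than those of macrophages summed to 15.4 and 22.8 TPM in WT and 73.0 and 40.6 TPM in stabilized libraries, with 7 of 10 higher in both on CPM, a median log2 fold change of 3.03, and on TPM 6 higher and 0 lower, with a median log2 ratio of 1.27. Nkg7, of cytotoxic lymphocytes, had no reads in WT and 13.4 and 5.19 CPM in stabilized libraries, at least 116-fold higher (adjusted p = 0.642). Macrophage markers overlapped for 10 of 14 genes on CPM, with sums of 73.6 and 68.6 TPM in WT and 158 and 54.5 TPM in stabilized libraries. In both stabilized libraries 4 were higher and 0 lower on CPM, and 3 and 0 on TPM, with medians of 0.71 and -0.02. edgeR called 0 gene of these 3 blood lists, with 4, 3 and 2 at an unadjusted p under 0.05 in the erythrocyte, leukocyte and macrophage lists, of which DESeq2 called 0, 1 (Nkg7, higher) and 2 (Cd163 and P2ry12, higher). In bulk libraries a larger number of such cells and more RNA per cell cannot be told apart. Of the EC markers 1 of 13 was higher and 2 lower in both on CPM, of the neuron markers 1 of 9 was higher and 1 lower, of the astrocyte markers 2 of 6 were higher and 2 lower, and of the oligodendrocyte and Schwann cell markers 2 of 9 were higher and 1 lower. On TPM 0, 0, 2 and 0 members of these lists were higher and 3, 1, 2 and 4 lower. For oligodendrocyte and Schwann cell markers the median log2 value was 0.89 on CPM and -0.42 on TPM.

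The stem and folliculostellate list had 9 of 15 genes higher and none lower in both stabilized libraries on CPM, against 23.6% and 16.4% of all genes (median log2 fold change 0.92), and on TPM 6 higher and 2 lower, with a median log2 ratio of 0.40, with sums of 465 and 398 TPM in WT and 883 and 694 TPM in stabilized libraries. edgeR called 0 of them, with 3 at an unadjusted p under 0.05, and DESeq2 called 1 (S100b, higher). Sox9, a progenitor transcription factor, was at 17.9 and 20.9 CPM in WT and 63.9 and 53.3 CPM in stabilized libraries (log2 fold change 1.59, SE 0.540, adjusted p = 0.729), and Aldh1a1, a retinaldehyde dehydrogenase, at 3.67 and 5.83 CPM in WT and 31.5 and 23.7 CPM in stabilized libraries (log2 fold change 2.54, SE 0.862, adjusted p = 0.729). On TPM both were closer, with Sox9 at 2.58 and 3.81 TPM in WT and 7.05 and 5.68 TPM in stabilized libraries and Aldh1a1 at 2.40 and 4.28 TPM in WT and 13.3 and 8.31 TPM in stabilized libraries. S100b, the classical marker of folliculostellate cells, stayed under 1 TPM in all 4 libraries. Sox9, Aldh1a1 and S100b thus made up a small part of the list sums. Sox2, another member, overlapped on CPM, as given above. It overlapped on TPM too, at 16.6 and 10.2 TPM in WT and 13.2 and 6.56 TPM in stabilized libraries.

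The melanotroph list marks the intermediate lobe, which is attached to the posterior lobe and can come with either lobe in dissection. Of its 7 genes, 6 were higher in both stabilized libraries on CPM, against 23.6% of all genes, and Drd2 was lower, with a median log2 fold change of 1.15. On TPM there were 4 higher and 1 lower, with a median log2 ratio of 0.45. edgeR called 0 of them, with 3 at an unadjusted p under 0.05, and DESeq2 called 2 (Oacyl and Pax7, higher). Oacyl, an acyltransferase, was at 12.6 and 12.3 CPM in WT and 93.8 and 149.6 CPM in stabilized libraries (log2 fold change 3.29, SE 0.632, adjusted p = 0.169, edgeR). Pax7, the melanotroph selector factor, was at 8.47 and 8.15 CPM in WT and 17.5 and 31.5 CPM in stabilized libraries. On TPM Oacyl was higher in both stabilized libraries as well, at 12.0 and 18.6 TPM, by less than on CPM, and Pax7 overlapped. Both lay higher in the posterior lobe GFP-negative cells, Oacyl at 134 and 229 TPM in WT and 114 and 123 TPM in stabilized libraries and Pax7 at 36.7 and 50.4 TPM in WT and 9.23 and 11.3 TPM in stabilized libraries. The part of intermediate lobe cells in the Pomc and Pcsk2 values above was not tested. Of the 9 neural lobe genes, Rax, Avp and Oxt had no reads in any anterior library, and the list summed to 10.6 and 6.42 TPM in WT and 14.1 and 8.95 TPM in stabilized libraries. On CPM 5 of the 9 (55.6%) were higher and 0 lower in both stabilized libraries, against 23.6% and 16.4% of all genes, with a median log2 fold change of 1.05, 0 called by edgeR and 2 at an unadjusted p under 0.05, and on TPM 3 higher and 0 lower, with a median log2 ratio of 0.08.

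**Figure D5:**
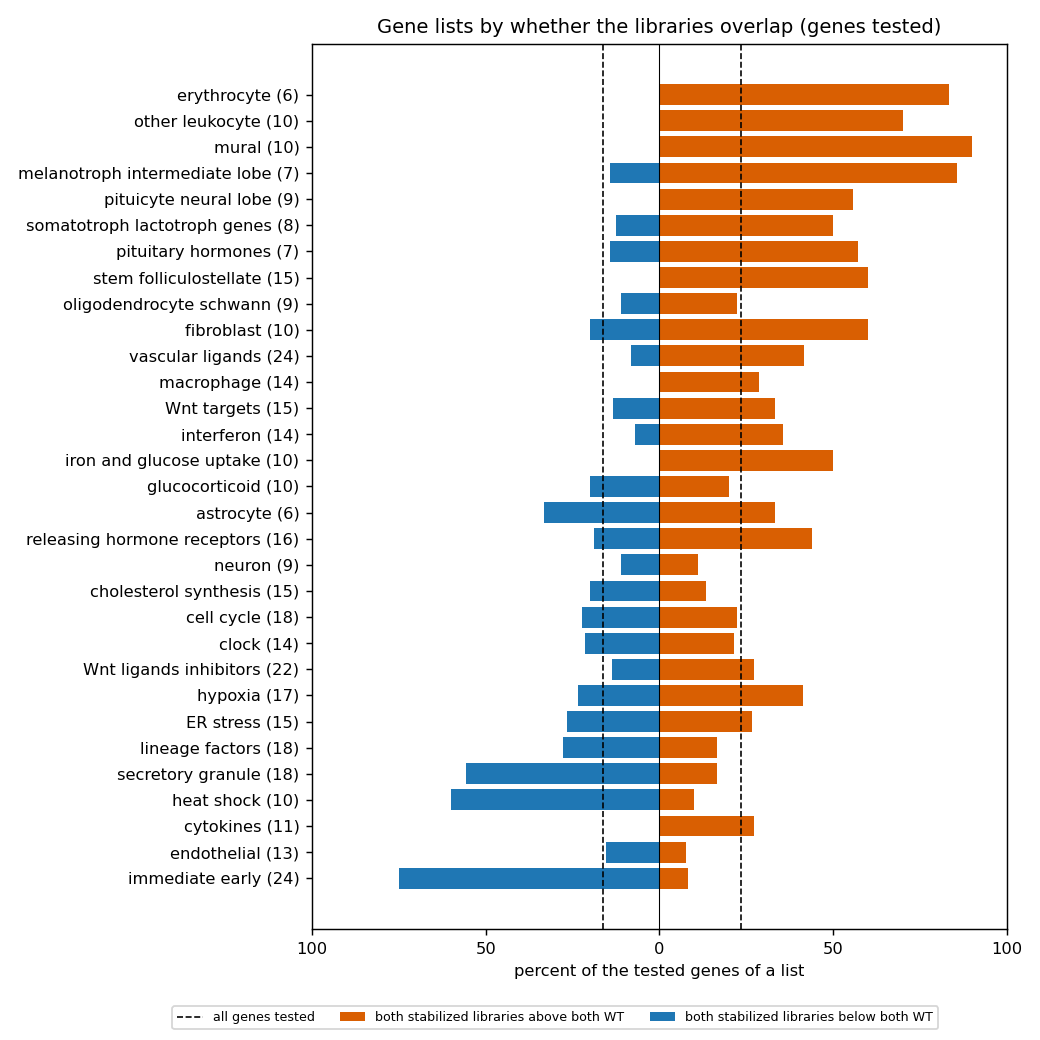
For each gene list, the percent of its tested genes whose 2 stabilized libraries lay above both WT libraries (right, orange) or below both (left, blue), on CPM, ordered by the median log2 fold change from highest at the top. Dashed lines mark 23.6% and 16.4%, the shares over all genes tested, and the number of genes tested stands in parentheses. The erythrocyte and melanotroph lists reach 83.3% and 85.7% on the right, and the immediate early list 75.0% on the left.

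Because the manipulation was of beta-catenin, direct Wnt targets were examined in the GFP-negative cells. Of 15 tested, 5 (33.3%) were higher and 2 (13.3%) lower in both stabilized libraries on CPM, against 23.6% and 16.4% of all genes, and on TPM 4 higher and 3 lower, with a median log2 ratio of 0.06. The CPM values had a median log2 fold change of 0.48 (0.76 with genes absent from a genotype at their bound), and edgeR called 0 with 1 at an unadjusted p under 0.05, while DESeq2 called 1 (Lgr5, higher). Axin2, a feedback inhibitor and the most general of these targets, was at 25.9 and 29.5 CPM in WT and 13.9 and 10.8 CPM in stabilized libraries, lower in both (log2 fold change -1.16, SE 0.668, adjusted p = 0.771, edgeR). Lef1, a transcription factor of the pathway, was at 0.266 and 1.04 CPM in WT and 6.36 and 3.58 CPM in stabilized libraries, and Lgr5, an R-spondin receptor, at 0.266 and 0.535 CPM in WT and 6.03 and 10.6 CPM in stabilized libraries (log2 fold change 4.36, SE 0.884, adjusted p = 0.174). Both were higher in both stabilized libraries, at low levels. Lgr5 was also higher in the posterior lobe than here, at 12.6 and 36.9 TPM in WT and 4.51 and 5.31 TPM in stabilized libraries.

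Wnt ligands and secreted inhibitors were low throughout, with sums of 14.4 to 18.5 TPM in the 4 libraries, no call among the 22 tested and 1 at an unadjusted p under 0.05 (DESeq2 called 0). Wnt7a had no reads in any anterior library, and Wnt7b was at 0.00961 and 0.0115 TPM in WT and 0.00391 and 0 TPM in stabilized libraries. Of 24 ligands that act on vessels, 10 (41.7%) were higher and 2 (8.33%) lower in both on CPM, against 23.6% and 16.4% of all genes. On TPM there were 5 higher and 4 lower, with a median log2 ratio of 0.13, and the list summed to 163 and 169.6 TPM in WT and 129.8 and 133 TPM in stabilized libraries. edgeR called 0, with 3 at an unadjusted p under 0.05 (DESeq2 called 0). Vegfa, the main angiogenic ligand, was at 21.1 and 33.9 CPM in WT and 35.7 and 39.2 CPM in stabilized libraries, with overlap on TPM. Angpt1, the Tie2 agonist, was at 365 and 301 CPM in WT and 154 and 121 CPM in stabilized libraries (log2 fold change -1.27, SE 0.688, adjusted p = 0.771, edgeR). Sema3e, a plexin ligand that repels ECs, was at 1.76 and 7.16 CPM in WT and 22.2 and 25.0 CPM in stabilized libraries.

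Of the genes induced by hypoxia, 7 of 17 tested (41.2%) were higher and 4 (23.5%) lower in both stabilized libraries on CPM, against 23.6% and 16.4% of all genes and 22.1% and 25.2% of those that reached 10 TPM, with a median log2 fold change of 0.0054. On TPM 2 (11.8%) were higher and 6 (35.3%) lower, against 15% and 26.9% of all genes and 9.59% and 46.2% of those that reached 10 TPM. The median log2 ratio was -0.38, against -0.18 over all genes and -0.44 over those that reached 10 TPM. edgeR called 0, with 4 at an unadjusted p under 0.05, and DESeq2 called 1 (Ddit4, lower). Ddit4, an inhibitor of mTORC1 that hypoxia and glucocorticoids induce, was at 70.1 and 65.5 CPM in WT and 22.4 and 13.3 CPM in stabilized libraries (log2 fold change -1.93, SE 0.526, adjusted p = 0.485, edgeR). Slc2a1, the glucose transporter GLUT1, overlapped at 55.6 and 58.0 CPM in WT and 48.3 and 65.8 CPM in stabilized libraries. The interferon, cytokine, glucocorticoid and iron and glucose uptake lists had 5 of 14, 3 of 11, 2 of 10 and 5 of 10 genes higher in both stabilized libraries on CPM (35.7%, 27.3%, 20% and 50%, against 23.6% of all genes) and 1, 0, 2 and 0 lower, and on TPM 2, 2, 0 and 2 higher and 4, 2, 2 and 2 lower, with none called by edgeR, 1, 1, 0 and 1 at an unadjusted p under 0.05, and Slc2a4, of the last list, called higher by DESeq2. The clock, cell cycle and cholesterol synthesis lists had median log2 fold changes of 0.06, 0.07 and 0.10, with 3 of 14, 4 of 18 and 2 of 15 genes higher and 3, 4 and 3 lower in both on CPM. On TPM the medians were -0.32, -0.04 and -0.38, with 1, 2 and 1 genes higher and 6, 3 and 6 lower.

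The response of the GFP-negative cells was then set against that of the GFP-positive cells of the same lobe. In the GFP-positive cells edgeR called 81 genes higher and 3 lower. In the GFP-negative cells 0 of the 81 were called higher, with 8 of them higher at an unadjusted p under 0.05 and 3 called higher by DESeq2. Of all genes tested there edgeR called 0.0357% higher, and DESeq2 225 of 19612. A count of 0 is near that edgeR share and does not show whether the 81 responded. The median log2 fold change of the 81 was 8.15 in the GFP-positive cells and 0.39 in the GFP-negative cells. In the latter 24 of the 81 (against the background of 23.6%) were higher in both stabilized libraries. The 81 genes were selected by their change in the GFP-positive cells, so that a larger median there follows from the choice. For genes without reads in WT its size also depends on the prior count. Of the 3 called lower in the GFP-positive cells, Hspa1b was called lower in the GFP-negative cells as well. The difference between the responses, tested as an interaction over all 24 sorted libraries, was called for 24 of 21343 genes (0.112%), 3 of them positive and 21 negative in the direction of GFP-negative minus GFP-positive. The count was 342 with DESeq2, 468 without the filter and 22 to 50 with a library left out. Without stabilized GFP-positive replicate 2, whose labels disagree on the lobe, 85 genes were called higher in the GFP-positive cells, 69 of the 81 among them. Of these 85, 84 were tested in the GFP-negative cells and 0 were called higher there, again near the share over all genes. In that setting 29 differences between responses were called, 19 of the 24 among them. Beside these calls stand the higher macrophage sums of the stabilized GFP-positive libraries given above and those of the cytokine list, from 62.2 and 85.7 to 263 and 295 TPM.

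Of these 24 genes, 3 reached 10 TPM in the GFP-negative cells. Spock2, a matrix proteoglycan, had the smallest adjusted p of the 3. It was at 23.5 and 37.9 TPM in WT and 23.8 and 19.8 TPM in stabilized GFP-negative cells, and at 1.24 and 0.623 TPM in WT and 26.5 and 71.1 TPM in stabilized GFP-positive cells (difference of log2 responses -6.26, SE 0.598, adjusted p = 7.15e-05, edgeR). Il1b, an inflammatory cytokine, overlapped in GFP-negative cells at 35.4 and 41.6 CPM in WT and 39.3 and 22.7 CPM in stabilized libraries, although lower in both on TPM, but went from 0 and 0.0239 to 104 and 155 TPM in GFP-positive cells, where macrophage markers moved the same way (difference -13.47, SE 1.94, adjusted p = 0.00605). Kmt2d, a histone methyltransferase, was lower in both stabilized GFP-negative libraries, at 176 and 169 CPM in WT and 60.5 and 33.1 CPM in stabilized libraries, and lay at 24 and 34.2 TPM in WT and 53.2 and 36.3 TPM in stabilized GFP-positive cells (difference -2.77, SE 0.484, adjusted p = 0.0219). Axin2 was at 3.10 and 0.0474 TPM in WT and 8.97 and 29.6 TPM in stabilized GFP-positive cells, and for it the difference between responses was not called (-4.34, SE 1.32, adjusted p = 0.403). Without stabilized GFP-positive replicate 2 the differences for Spock2 and Il1b were -5.23 and -12.91 and remained called (adjusted p = 1.12e-06 and 0.00149, edgeR), and that for Kmt2d, -2.69, did not (adjusted p = 0.0844).

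Against the GFP-negative cells of the posterior pituitary, the response differed for 1 of 19612 genes (0.0051%), Cdh22, which had no reads in WT anterior libraries and was at 2.74 and 9.31 TPM in WT and 1.36 and 1.38 TPM in stabilized posterior libraries (adjusted p = 0.0303, edgeR). The count was 217 with DESeq2, 203 without the filter, 6 with the replicate block and 23 to 231 with a library left out, so that a count of 1 does not show like responses. Against cerebellum it differed for 49 genes (0.25%), 45 of them positive in the direction of anterior pituitary minus cerebellum, and for 634 with DESeq2, 518 without the filter and 84 to 316 with a library left out. Epcam, an epithelial adhesion molecule of endocrine cells, was lower in both stabilized anterior libraries, at 428 and 433 CPM in WT and 296 and 368 CPM in stabilized libraries. In cerebellum it went from 0.0122 and 0.0106 to 1.43 and 0.845 TPM (difference -7.05, SE 0.552, adjusted p = 0.000231). Armcx4, an armadillo-repeat gene, was lower in both stabilized anterior libraries, at 159 and 159.8 CPM in WT and 64.6 and 47.6 CPM in stabilized libraries, and overlapped in cerebellum at 3.62 and 2.14 TPM in WT and 6.30 and 3.14 TPM in stabilized libraries (difference -2.63, SE 0.458, adjusted p = 0.0381). Copz2, of the COPI coat, was at 33.1 and 25.5 CPM in WT and 22.0 and 20.9 CPM in stabilized anterior libraries and was listed at 0 in both stabilized cerebellum libraries, against 17.9 and 3.42 TPM in WT. All these tests rest on 2 libraries per group.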

How the data were processed

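RNA from sorted cells was amplified (NuGEN Ovation) and sequenced as single-end reads of 75 cycles. Per the study's methods the authors quantified transcripts with Salmon 0.10.2 on the Ensembl 92 transcriptome of GRCm38, with bias correction. The deposited files hold 1 library each, with estimated counts (expected read numbers, not normalized), TPM and an effective length in bases per transcript. Estimated counts and TPM were summed here per gene with the GENCODE M21 annotation of GRCm38, and counts were rounded to whole numbers. Amplified reads without molecular identifiers are not independent molecules, so the floor of 3 counts covers counting error only.

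The 12 GFP-negative libraries were fitted together in edgeR 4.0.16 (R 4.3.3) with TMM normalization, its filter on low counts and 1 coefficient per group, by the quasi-likelihood test with Benjamini-Hochberg adjustment over all genes tested. Calls required an adjusted p below 0.05 and a 2-fold change or more. Differences between responses were contrasts of contrasts, over all 24 sorted libraries where GFP-positive cells entered. The authors' own test, EBSeq, was not run. The code was tested on simulated data.

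The alternatives were DESeq2 1.42.0, RLE normalization, no filter, a replicate block, an effective length offset, other sets of libraries in the fit, each library left out in turn, and log2 ratios of TPM with pseudocounts of 0.1 and 1. Calls that also reach 10 TPM and calls in GFP-positive cells without each of their libraries were alternatives chosen after seeing the data.

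The members and gene lists were chosen with earlier results of these data known. Genes were named by rule: all hormones, receptors and lineage factors that reached 10 TPM in both libraries of a genotype, called protein-coding genes that did so without overlap (at most 10 per direction), the called or else the 2 highest members of each other list, the 5 largest called differences between responses in each direction, and Ctnnb1, Axin2 and Lef1. Any other gene named was chosen after its values were seen. Some genes that the rule names are not reported here. Lists were described by counts and medians and were not tested. Promoter sequences and their shares came from RefSeq (GRCm38.p6).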

Additional observations from a re-analysis of the deposited data

Results flagged for a closer look

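In 17 tests of genes named by rule the response of stabilized against WT mice differed between the anterior pituitary GFP-negative cells and another group by edgeR's test of the difference. Values are the difference of log2 responses. For genes without reads in a genotype the size depends on the prior count.

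Against the GFP-positive cells of the lobe, Vcam1, a leukocyte adhesion molecule, differed by -9.85, Il1b by -13.47, Kmt2d by -2.77 and Spock2 by -6.26. Vcam1 went from 0 and 0.00657 to 4.83 and 14.7 TPM in GFP-positive cells, where macrophage markers moved the same way, and from 5.85 and 4.16 to 10.1 and 2.42 TPM in GFP-negative cells.

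Against the posterior pituitary GFP-negative cells, Cdh22 differed by 10.40.

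Against the cerebellum GFP-negative cells, the called genes Gm49450, Samd3, Cdh22, Fut9 and Luzp2 differed by 13.56, 10.87, 9.91, 5.05 and 4.24. Eya1 differed by 5.54, with cerebellum at 3.43 and 4.59 TPM in WT and 0.0699 and 0.0449 TPM in stabilized libraries. Epcam differed by -7.05 and Armcx4 by -2.63.

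The remaining genes included pseudogenes or members of families with near-identical copies. Gm14414 differed by 20.87, Gm12481 by 11.39, Rnaset2b by 10.89 and Copz2 by 9.99.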

How the results depend on the processing

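Against 7 genes called higher and 1 lower, DESeq2 called 225 and 62, omission of the filter on low counts 176 and 75, and the effective length offset 4 higher. The fit of the 4 libraries alone called 9 lower and that of all 24 libraries 0 lower. Of the calls, 2 higher genes reached 10 TPM. With each library left out in turn the counts ran from 27 to 51 higher and from 7 to 12 lower, and all 8 genes remained called each time. Of the difference between responses, against GFP-positive cells 24 genes were called, and 342 with DESeq2, 468 without the filter and 22 to 50 with a library left out. In the GFP-positive cells 81 genes were called higher and 3 lower, and 50 to 113 and 2 to 6 with one of their libraries left out, chosen after seeing the data (50 and 6 without WT GFP-positive replicate 2). Against the posterior lobe 1 was called, and 217 with DESeq2, 203 without the filter, 6 with the replicate block and 23 to 231 with a library left out (the highest without WT posterior replicate 1). Against cerebellum 49 were called, and 634 with DESeq2, 518 without the filter and 84 to 316 with a library left out (the highest without stabilized cerebellum replicate 1). The cause of these differences was not tested. Same-numbered WT and stabilized anterior GFP-negative libraries deviated together with a correlation of 0.0011. A low correlation of this kind cannot show whether the numbers pair these libraries. Between the lobes, which can share mice, the correlation was -3e-04 in WT and 0.0716 in stabilized GFP-negative libraries. By the study's methods both lobes, and cells with and without GFP, were taken from the pooled mice, so fractions of a replicate can share mice. The main fits treated them as independent. A replicate block within each preparation called 27 differences against GFP-positive cells. The replicate block called 9 higher and 1 lower, the 8 genes among them.

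By log2 ratio of TPM with pseudocounts of 0.1 and 1 the direction turned for Gnrhr (-0.26 and -0.25), Tbx19 (-0.46 and -0.43), Aldoc (-0.024 and -0.023), Pcna (-0.15 and -0.14), Eng (-0.013 and -0.0087), Jund (0.85 and 0.83), Sema3a (-1.26 and -0.99) and Fgf1 (-0.86 and -0.74). With the length offset it turned for Jund (1.27), Sema3a (-0.89) and Fgf1 (-0.52). For 31 genes 65 other values had another sign within the SE. With the length offset 15.6% of all genes tested changed sign. The limits are 2 pooled libraries per genotype, genotypes that differed in Cre and, as far as stated, in 4HT as well, and reads of near-identical copies whose assignment was not tested. Genes at a few counts, such as Fut9, have no reliable fold.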

Other observations

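Effective lengths of the same gene differed by more than 1.5-fold between genotypes for 22.9% of genes, and by as much between the WT libraries for 22.8% and between the stabilized libraries for 22.7%. A TPM ratio and a CPM ratio of one gene can therefore point in different directions, as they did for Jund. Rnaset2b, a ribonuclease with a near-identical neighbour, was at 0 and 0.0802 CPM in WT and 55.9 and 41.9 CPM in stabilized anterior libraries without passing the test (adjusted p = 0.0586, edgeR).

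Cd3e and Cd3g, which encode chains of the T cell CD3 complex, and the scavenger receptor Cd163 of macrophages had no reads in the WT libraries. They lay at 6.95 and 1.72, 3.18 and 2.66 and 3.07 and 2.99 CPM in the stabilized libraries, at least 54.1-fold, 36.5-fold and 37.9-fold higher against the floor of 3 counts per library. edgeR called 0 of the 3, and DESeq2 called Cd163.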
